A study of Mus musculus with 12 samples.

Results

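Pro-B cells sorted as positive for a human CD4 (hCD4) reporter were compared with pro-B cells sorted as negative for it. All cells came from the bone marrow of female C57BL/6 mice, 16 weeks old, and all carried the same kind of reporter, in which enhancer and promoter sequence of Cebpa drives hCD4. The arrays titled pro-B hCD4+ (2 arrays) and pro-B hCD4- (2 arrays) were taken, which is 4 of the 12 arrays of the series, and all 18556 genes that passed a filter on dim probes were tested. The other 8 arrays (2 each of hCD4+ granulocyte-monocyte progenitors, or GMP, of hCD4+ and of hCD4- pre-pro-B cells, and of pre-B cells, with no hCD4 status given) helped to estimate the spread and are cited where they set a value in context. The reporter reads the activity of that regulatory sequence and not the Cebpa transcript itself, the surface gates of the sorts are not given in the sources used here, and no label ties a replicate to a single animal. The p-values therefore measure the spread between these samples, which may be technical.

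Pro-B cells are the stage at which the B lineage becomes committed. They rearrange the immunoglobulin heavy chain genes with the Rag recombinase, depend on interleukin 7 and carry the surrogate light chain, under the transcription factors Ebf1 and Pax5. Cebpa encodes C/EBPα, a transcription factor that drives the formation of granulocytes and monocytes and is silenced as lymphoid cells commit. Forced C/EBP activity can turn B lineage cells into macrophages, and the comparison asks which transcripts go with activity of the Cebpa regulatory sequence at a stage where the gene is usually silent.

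A level below is the log2 signal of a gene's probe relative to the 75th percentile of its own array, so a level of 0 has the brightness of that percentile. A change is the mean hCD4+ level minus the mean hCD4- level, and the words rose and fell are used of genes where the limma test gave an adjusted p under 0.05. Of all probe spots, 57.2% and 56.0% were well above background on hCD4+ arrays, against 55.4% and 54.5% on hCD4- arrays, and no spot was saturated. Replicates correlated at 0.992 (hCD4+) and 0.991 (hCD4-), and the means of the groups at 0.973. The hCD4+ pro-B arrays share a slide with the pre-B arrays, and the hCD4- pro-B arrays share another with the hCD4+ pre-pro-B arrays, so slide and hCD4 status cannot be told apart in this comparison. Negative control spots had a net signal of 66.1 and 67.8 on hCD4+ pro-B arrays, against 42.2 and 42.2 on hCD4- pro-B arrays. The pre-B levels, measured on the same slide as the hCD4+ pro-B levels, are therefore given beside some of the main genes. For most monocyte, adaptor, receptor and dendritic genes they are not given.

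Both groups carried the markers of their label. Of 21 pro-B cell genes all were kept, and 20 were well above background on both hCD4+ arrays, against 21 on both hCD4- arrays. Cd79a, a signalling chain of the antigen receptor, had levels of 5.40 and 5.05 on hCD4+ arrays, against 5.65 and 5.73 on hCD4- arrays. Vpreb1, a surrogate light chain gene, lay at 7.69 and 7.83 on hCD4+ arrays, against 8.22 and 8.14 on hCD4- arrays, and Dntt, the terminal transferase that adds bases at heavy chain joints, at 7.55 and 7.58 on hCD4+ arrays, against 7.99 and 7.91 on hCD4- arrays. These are among the bright genes of all 4 arrays, and in each case both hCD4+ levels were under both hCD4- levels, by less than 1 on the log2 scale.

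Cebpa itself was measured on both hCD4+ arrays and on neither hCD4- array. Its levels were -1.38 and -1.88 on hCD4+ arrays, against -5.32 and -6.77 on hCD4- arrays, where the hCD4- values are below what the arrays call well above background. The rise was at least 8.76-fold (fitted change 4.41, standard error 0.49, adjusted p = 9.37e-04), and the fitted change ran over 1.68 to 5.14 under the alternatives, with the call kept in each. Levels were 2.07 and 1.68 in GMP, and -5.53 and -6.21 in pre-B cells on the slide of the hCD4+ pro-B arrays, where it was not well above background. In pre-pro-B cells they were -0.28 and -0.55 (hCD4+) and -0.48 and -1.35 (hCD4-), well above background on each array. All of these pre-pro-B levels, those of hCD4- cells included, lay above the hCD4+ pro-B levels. Mpo, which encodes the peroxidase of the neutrophil primary granule, had the largest rise of all 18556 genes, and Cd34, a surface sialomucin of stem and progenitor cells, the third largest among named genes measured in both groups. Both Mpo probes rose, at chr11:87617840-87617899 (the probe used) and chr11:87615121-87615180, both on the plus strand of mm9. The Cd34 probes did not move together, the one used lying at chr1:196787392-196787451 and the other at chr1:196785280-196785339, both on the plus strand. The Cebpa probe lies at chr7:35906517-35906576 on the plus strand.

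The C/EBP genes known from myeloid cells rose. Cebpe, which governs the secondary granules of neutrophils, had levels of -0.56 and -0.72 on hCD4+ arrays, against -3.47 and -4.17 on hCD4- arrays, a change of 3.17 (standard error 0.53, adjusted p = 0.00574). Cebpd, induced in myeloid maturation and inflammation, lay at 0.29 and 0.26 on hCD4+ arrays, against -1.72 and -2.55 on hCD4- arrays. It rose by 2.41 (standard error 0.46, adjusted p = 0.00949). Cebpb, which acts in macrophages and in emergency granulopoiesis, lay at 0.03 and 0.10 on hCD4+ arrays, against -1.65 and -1.86 on hCD4- arrays, with a change of 1.82 (standard error 0.23, adjusted p = 0.00167). In none of these did the groups overlap, as in 12900 of all 18556 genes tested. Cebpz, on the list by its symbol and named here after its values were seen, changed by 0.39 (adjusted p = 0.036). That call ended in 11 of its 24 alternatives. The list, Cebpz included, thus had 5 of 7 genes higher and 0 lower (median change 1.82), where 11.6% of all genes tested rose and 8.71% fell. The call of Cebpd ended without hCD4+ replicate 1 and without hCD4- replicate 2 (adjusted p 4.72e-04 to 0.0698 over its alternatives), and the size of the Cebpe change ran over 1.86 to 3.53.

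In all, 2145 of 18556 genes rose (11.6%) and 1616 fell (8.71%), with a median change of 0.03 over all genes. The rises were the larger changes: 420 genes rose by over 2 on the log2 scale and 119 fell by as much. Of those 420 rises, 242 were in genes that no hCD4- array measured above background. Of the 119 falls, 70 were in genes that no hCD4+ array measured above background. Because each group has 2 arrays, the counts depend on every array. They were 1132 higher and 728 lower without hCD4+ replicate 1, 1171 and 803 without hCD4+ replicate 2, 1183 and 778 without hCD4- replicate 1, and 957 and 516 without hCD4- replicate 2. Scaling to the array median in place of the 75th percentile moved the median of all genes by -0.22 and gave 1450 higher and 3151 lower, so that 31.5% of the calls were rises against 57.0% here. With normexp background correction and quantile normalization, and in the authors' deposited table, 98 of the 100 named genes that were called kept their calls, all but Cxcr2 and Igk-C, which are dim in both groups, but the changes of 41 and 48 of the 100 were over 1.5 times smaller. The list medians below compare with the 0.03 of all genes, which was -0.19 under array-median scaling. Of the 2145 genes that rose, 451 (21.0%) had all 4 arrays of the slide that holds hCD4+ pro-B and pre-B cells above all 8 arrays of the other slides, next to 4.30% of all genes tested. Of the named genes that rose, Ccne2 alone had this pattern.

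**Figure D1:**
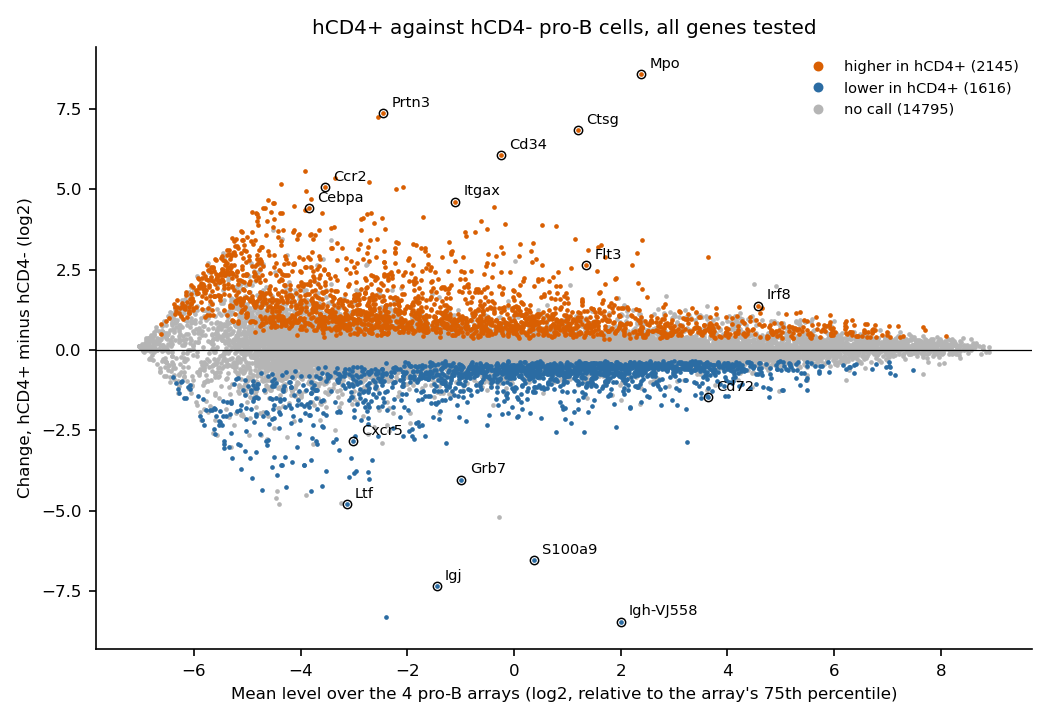
Change (mean hCD4+ minus mean hCD4- log2 level, vertical axis) against mean log2 level over the 4 pro-B arrays (horizontal axis) for the 18556 genes tested. Orange points rose (2145), blue points fell (1616) and grey points passed no test, and the named points are a selection of the named genes. The points spread further at low levels, and Mpo and Igh-VJ558 lie at the ends of the vertical range.

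The granule protease and peroxidase genes that GMP make in bulk led the rises. Mpo had levels of 6.71 and 6.62 on hCD4+ arrays, against -3.33 and -0.47 on hCD4- arrays, a change of 8.57 (standard error 1.26, adjusted p = 0.00327), and 9.34 at its other probe. The groups lay far apart, and the hCD4- arrays differed from each other by more than the hCD4+ arrays did. Ctsg, the granule protease cathepsin G, lay at 4.70 and 4.53 on hCD4+ arrays, against -2.71 and -1.75 on hCD4- arrays, a change of 6.84 (standard error 0.83, adjusted p = 0.00136). Prtn3, proteinase 3, was at 1.52 and 0.95 on hCD4+ arrays, against -6.64 and -5.64 on hCD4- arrays, and since no hCD4- array measured it the rise was at least 63.9-fold (adjusted p = 1.66e-04). Ms4a3, a membrane protein gene that marks GMP, was at 1.05 and 1.09 on hCD4+ arrays, against -6.83 and -5.52 on hCD4- arrays. It rose at least 57-fold (adjusted p = 2.31e-04). Elane, neutrophil elastase, lay at 3.23 and 2.65 on hCD4+ arrays, against -0.11 and -0.21 on hCD4- arrays, a change of 3.10 (standard error 0.26, adjusted p = 3.08e-04). GMP levels were 8.41 and 8.89 for Mpo, 8.40 and 8.64 for Ctsg, 5.83 and 5.32 for Prtn3 and 7.43 and 7.72 for Elane, all above the hCD4+ pro-B levels. Pre-B levels, on the slide of the hCD4+ pro-B arrays, were -1.99 and -0.60 for Mpo and -3.51 and -2.29 for Ctsg, and Prtn3 was not measured there (-5.64 and -4.99). Of the primary granule list 12 of 17 rose and 1 fell (median change 1.31), among 18 listed genes of which 17 passed the filter. Those calls were kept in every alternative for Mpo, Ctsg, Prtn3, Ms4a3 and Elane, with fitted changes of 6.95 to 9.99, 6.04 to 7.32, 4.19 to 7.87, 3.91 to 7.90 and 2.81 to 3.39.

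Promoters of Mpo, Prtn3 and Elane are shown because the 3 genes rose together and each window holds the letters GAGGAAGT or their reverse complement, a form of the site of PU.1, the Ets factor that works beside C/EBP factors in myeloid cells. Each window runs from 250 bases before to 50 after the RefSeq start on GRCm38.p6, 5′ to 3′ along the gene, with the match in capitals.
Mpo, chr11:87793534-87793833, plus strand: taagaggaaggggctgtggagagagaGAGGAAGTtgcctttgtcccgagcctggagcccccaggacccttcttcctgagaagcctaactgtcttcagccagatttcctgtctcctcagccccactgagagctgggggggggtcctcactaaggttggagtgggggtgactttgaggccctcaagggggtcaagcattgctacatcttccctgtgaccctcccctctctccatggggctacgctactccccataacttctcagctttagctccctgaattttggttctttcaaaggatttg
Prtn3, chr10:79879417-79879716, plus strand: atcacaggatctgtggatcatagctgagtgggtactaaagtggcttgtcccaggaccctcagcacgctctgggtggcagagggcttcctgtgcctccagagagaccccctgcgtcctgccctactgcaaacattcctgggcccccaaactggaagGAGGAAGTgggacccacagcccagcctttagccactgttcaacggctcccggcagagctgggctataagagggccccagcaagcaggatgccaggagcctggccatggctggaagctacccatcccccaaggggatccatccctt
Elane, chr10:79886062-79886361, plus strand: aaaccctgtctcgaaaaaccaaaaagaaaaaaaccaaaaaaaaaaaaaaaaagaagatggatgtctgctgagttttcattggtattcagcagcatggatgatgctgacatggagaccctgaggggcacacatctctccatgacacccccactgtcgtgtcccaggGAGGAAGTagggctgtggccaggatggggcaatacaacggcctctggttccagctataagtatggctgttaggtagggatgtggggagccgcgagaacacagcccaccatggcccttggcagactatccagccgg
Both strands were searched, and 3.20% of the 32851 promoters of the RefSeq table hold the motif. It was in 6.36% of 1116 genes that rose and have a promoter in the table, 4.07% of 1082 that fell and 3.88% of all 10904 tested genes with one. The C/EBP letters TTGCNNAA or their reverse complement were in 12.7% of the genes that rose and 12.9% of those that fell. Either form was in 10.7% of all tested and 10.8% of all promoters, and in none of the 3 windows shown. The palindromic letters CCCNNGGG, the core of the EBF site, were in 23.1% of the genes that rose, 24.3% of those that fell, 20.6% of all tested and 13.7% of all promoters, and once in the Prtn3 window, apart from the match in capitals. The windows of Ctsg and Cebpa hold neither motif. A match is a description of letters, and binding was not measured.

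More genes of later neutrophils fell than rose. S100a9, a subunit of calprotectin, abundant in mature neutrophils, had levels of -0.97 and -4.81 on hCD4+ arrays, against 4.07 and 3.21 on hCD4- arrays, a change of -6.52 (standard error 1.44, adjusted p = 0.0166). Ltf, lactoferrin of the secondary granule, lay at -4.44 and -6.63 on hCD4+ arrays, against -0.23 and -1.24 on hCD4- arrays, a change of -4.80 (standard error 0.66, adjusted p = 0.00241). Ngp, neutrophilic granule protein, was at -4.72 and -6.73 on hCD4+ arrays, against -1.64 and -2.65 on hCD4- arrays and, with no hCD4+ array above background, was at least 5.59-fold lower (adjusted p = 0.0046). The hCD4+ arrays disagreed on S100a9 and Ltf, replicate 1 having the higher level of both. Of the secondary granule and late list 3 of 14 rose and 7 fell (median change -1.56), with 14 of 20 listed genes kept. Its summed signal, in units of each array's 75th percentile, was 15.9 and 16.6 on hCD4+ arrays, against 44.5 and 32.8 on hCD4- arrays. GMP levels lay below the hCD4- pro-B levels for S100a9 (-0.33 and -2.62) and Ltf (-5.39 and -6.41). The median level of the whole list was -1.59 in GMP, against -3.05 in hCD4+ and -1.44 in hCD4- pro-B cells. The rises were Hp, haptoglobin, with levels of 1.46 and 1.30 on hCD4+ arrays, against -2.43 and -2.83 on hCD4- arrays and a rise of 4.01 (standard error 0.38, adjusted p = 5.10e-04), Cebpe, and Cxcr2, a chemokine receptor of neutrophils, named after its values were seen. Cxcr2 was called (adjusted p = 0.0312), but none of the 4 pro-B arrays measured it well above background, and the call ended in 9 of its 24 alternatives (adjusted p 0.00688 to 0.758 over its alternatives). The call of S100a9 ended without hCD4+ replicate 2, without hCD4- replicate 1 and without hCD4- replicate 2 (adjusted p 0.00378 to 0.0886 over its alternatives).

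Monocyte and macrophage genes were a large group of rises. Of 30 listed genes 24 passed the filter, and 14 of 24 rose and 0 fell (0 lower at an unadjusted p under 0.05, median change 1.21). Ms4a6c, a membrane gene of monocytes, was at -0.19 and -0.03 on hCD4+ arrays, against -5.26 and -5.39 on hCD4- arrays, a rise of at least 25.1-fold (adjusted p = 1.50e-05). Ccr2, the receptor that takes monocytes out of the marrow, was at -0.99 and -1.01 on hCD4+ arrays, against -5.77 and -6.38 on hCD4- arrays, at least 13.5-fold higher (adjusted p = 4.09e-05). Its pre-B levels, on the slide of the hCD4+ pro-B arrays, were -5.23 and -5.58, not well above background. Cx3cr1, the fractalkine receptor of monocytes and dendritic precursors, lay at 0.49 and 0.39 on hCD4+ arrays, against -4.39 and -4.84 on hCD4- arrays. It rose by 5.06 (standard error 0.30, adjusted p = 7.36e-05), with 4.13 at its other probe. Lgals3, the galactose-binding protein of macrophages, lay at 1.86 and 1.83 on hCD4+ arrays, against -2.44 and -2.76 on hCD4- arrays. It rose by 4.45 (standard error 0.22, adjusted p = 4.14e-05). Aif1, an actin-bundling protein of macrophages, rose at least 17.2-fold (adjusted p = 7.36e-05). In these genes the hCD4+ replicates were close together and the groups far apart, and the calls were kept in every alternative, with fitted changes of 2.73 to 5.29 for Ms4a6c, 2.11 to 5.38 for Ccr2, 2.25 to 5.28 for Cx3cr1, 3.68 to 4.60 for Lgals3 and 2.22 to 4.46 for Aif1. Itgam, the integrin CD11b of mature myeloid cells, stood at -0.40 (adjusted p = 0.728) and Cd68, a lysosomal protein of macrophages, at 0.47 (adjusted p = 0.747), both named after their values were seen and both with a sign that turned under at least 1 alternative.

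Adaptors and receptors of phagocytes followed. Fcer1g, the Fc receptor gamma chain, had levels of 2.96 and 2.76 on hCD4+ arrays, against -0.25 and -0.91 on hCD4- arrays, a change of 3.44 (standard error 0.20, adjusted p = 7.36e-05). Tyrobp, the adaptor DAP12, lay at 4.13 and 4.08 on hCD4+ arrays, against 1.22 and 0.14 on hCD4- arrays. It rose by 3.42 (standard error 0.35, adjusted p = 6.24e-04). Trem2, which signals through that adaptor, was at -2.44 and -2.36 on hCD4+ arrays, against -6.76 and -6.62 on hCD4- arrays. It rose at least 5.14-fold (adjusted p = 4.09e-05). Of the Fc receptor and adaptor list 10 of 19 rose and 1 fell (median change 0.76). Of the 7 genes of the phagocyte NADPH oxidase, Cybb, the catalytic chain of the membrane part, rose by 3.13 (standard error 0.53, adjusted p = 0.00579). Its hCD4- levels were -3.54 and -5.44, and its pre-B levels, on the slide of the hCD4+ pro-B arrays, were higher at -2.63 and -2.82. Ncf1, a cytosolic organiser, rose by 3.05 (standard error 0.18, adjusted p = 7.36e-05), while the other 5 changed by -0.21 to 0.08 with no call. More of the largest rises are in genes of innate cells: Mefv, the pyrin gene, at least 16.9-fold higher (adjusted p = 7.36e-05, 0.67 at its other probe), Hk3, a hexokinase of myeloid cells, at least 15.8-fold (adjusted p = 2.27e-04), and Igsf6, an immunoglobulin superfamily membrane gene, with a change of 4.09 (standard error 0.38, adjusted p = 4.24e-04). Pira7, a paired immunoglobulin-like receptor gene of a family of near-identical copies, changed by 4.07 (standard error 0.36, adjusted p = 3.73e-04), and which copy its probe reads is uncertain.

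Receptors for myeloid growth factors rose in part. Il6ra, the interleukin 6 receptor, had levels of 1.59 and 1.50 on hCD4+ arrays, against -1.23 and -1.50 on hCD4- arrays, a change of 2.91 (standard error 0.14, adjusted p = 4.09e-05). Flt3, a receptor of lymphoid and dendritic progenitors, lay at 2.74 and 2.61 on hCD4+ arrays, against 0.18 and -0.10 on hCD4- arrays. It rose by 2.64 (standard error 0.33, adjusted p = 0.00161), and its other probes gave 2.65 and 0.58. Csf1r, the receptor of macrophage colony-stimulating factor, lay at 2.94 and 2.63 on hCD4+ arrays, against 0.38 and 0.31 on hCD4- arrays. It rose by 2.45 (standard error 0.34, adjusted p = 0.00255), and its other probes gave 2.26 and 0.99. Csf2rb2, which encodes the mouse interleukin 3 receptor beta chain, rose by 2.19 (standard error 0.25, adjusted p = 0.00108), with 1.38 at its other probe. Receptors without a call were Kit at 0.49 (adjusted p = 0.0917) and Csf2ra at -0.36 (adjusted p = 0.0739). Csf3r stood at 0.06 (adjusted p = 0.869), but its probe read between 6.26 and 7.14 on all 12 arrays, so this value does not show that the transcript was the same. Of the list 7 of 25 rose and 1 fell (median change 0.16), all 25 listed genes having been kept. Among myeloid transcription factors 5 of 18 rose and 3 fell (median change -0.22). Irf8, the factor of monocyte and dendritic fate, was bright in both groups at 5.41 and 5.14 on hCD4+ arrays, against 3.95 and 3.82 on hCD4- arrays. It rose by 1.38 (standard error 0.12, adjusted p = 3.72e-04), Nfil3 rose by 1.82 (standard error 0.29, adjusted p = 0.00446), and Sfpi1, the gene of PU.1, stood at 0.93 (adjusted p = 0.0565).

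**Figure D2:**
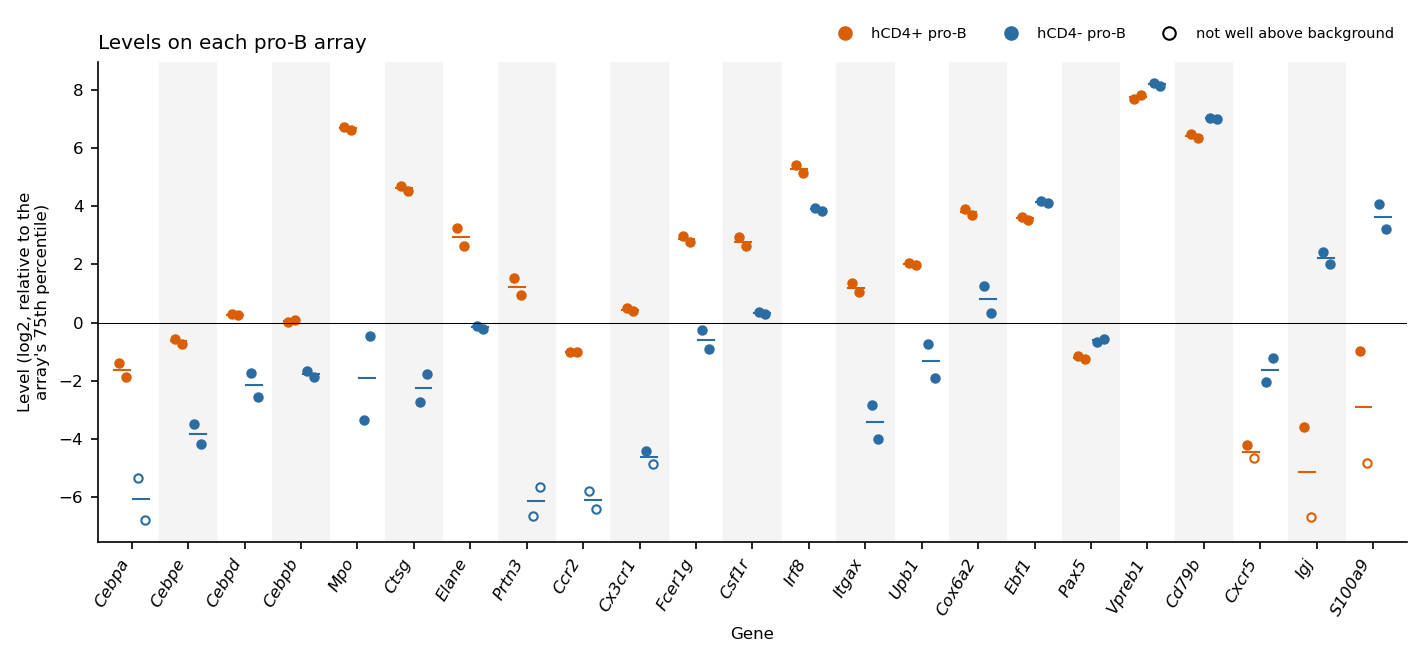
Log2 level relative to the array's 75th percentile for 23 genes on each of the 4 pro-B arrays, hCD4+ (orange, left of each pair) and hCD4- (blue, right), with open symbols where the array did not measure the probe well above background and a bar at each group's mean. Myeloid and dendritic genes sit higher in hCD4+ pro-B cells. The groups lie closer together for Ebf1, Pax5, Vpreb1 and Cd79b, and Cxcr5, Igj and S100a9 sit higher in hCD4- pro-B cells.

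Dendritic cell genes made up a further group of rises. The median level of the classical dendritic list was 1.40 in both pre-pro-B groups and -2.56 in GMP. Itgax, the integrin CD11c, had levels of 1.36 and 1.04 on hCD4+ arrays, against -2.83 and -4.00 on hCD4- arrays, a change of 4.61 (standard error 0.68, adjusted p = 0.00332), while it lay at 5.27 and 5.30 in hCD4+ and 5.08 and 5.14 in hCD4- pre-pro-B cells and at -3.35 and -3.49 in GMP. Clec9a, a receptor for dead cells on classical dendritic cells, was at -1.75 and -1.75 on hCD4+ arrays, against -5.75 and -6.42 on hCD4- arrays. It rose at least 8.09-fold (adjusted p = 7.18e-04). Cd209a, a lectin of the DC-SIGN family, lay at -1.44 and -1.53 on hCD4+ arrays, against -4.57 and -6.88 on hCD4- arrays. It rose by 4.24 (standard error 0.82, adjusted p = 0.0101), with 1.34 at its other probe. Of the classical dendritic list 6 of 12 rose and 0 fell (3 lower at an unadjusted p under 0.05, median change 0.90), with 12 of 18 listed genes kept. The call of Cd209a ended without hCD4+ replicate 1, without hCD4+ replicate 2 and without hCD4- replicate 2 (adjusted p 6.55e-05 to 0.0562 over its alternatives).

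The plasmacytoid dendritic list had the highest share of rises among the lists with over 10 genes: 19 of 25 rose and 1 fell (median change 1.62). Runx2, needed for these cells to leave the marrow, was at -1.97 and -2.11 on hCD4+ arrays, against -4.94 and -6.07 on hCD4- arrays. It rose at least 6.58-fold (adjusted p = 3.71e-04). Upb1, an enzyme of pyrimidine breakdown, lay at 2.05 and 1.98 on hCD4+ arrays, against -0.72 and -1.91 on hCD4- arrays. It rose by 3.34 (standard error 0.46, adjusted p = 0.00241). Cox6a2, a muscle-type subunit of cytochrome c oxidase that plasmacytoid cells also make, lay at 3.90 and 3.70 on hCD4+ arrays, against 1.27 and 0.33 on hCD4- arrays. It rose by 3.0 (standard error 0.26, adjusted p = 3.53e-04). Pre-pro-B levels were 6.28 and 6.18 in hCD4+ and 6.26 and 5.99 in hCD4- cells for Upb1. For Cox6a2 they were 7.67 and 7.71 in hCD4+ and 7.94 and 8.10 in hCD4- cells, and all of these lay above the hCD4+ pro-B levels. Pre-B levels of Cox6a2, on the slide of the hCD4+ pro-B arrays, were 1.87 and 1.68, above the hCD4- pro-B levels. Among the 5 members without a call were Siglech at 0.30 (adjusted p = 0.293) and Tcf4 at -0.04 (adjusted p = 0.912), both named after their values were seen. Siglech was called higher in 2 alternatives, and the sign of Tcf4 turned under 2. Ccr9 and Tlr7, given elsewhere in the text, were among the 19 members that rose. The summed signal of the list was 295 and 285 on hCD4+ arrays, against 184 and 173 on hCD4- arrays. Lag3, an inhibitory receptor, rose by 3.45 (standard error 0.73, adjusted p = 0.0146), a call that ended without hCD4+ replicate 1, without hCD4+ replicate 2 and without hCD4- replicate 2 (adjusted p 7.45e-04 to 0.0939 over its alternatives). In bulk RNA such as this, more cells of a type and more transcript per cell cannot be told apart, and the part that cells of another type may have in these rises and in the myeloid ones above was not tested.

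Class II presentation and lysosome genes rose in part. Of 13 class II presentation genes 5 rose and 1 fell (median change 0.88). H2-DMb1, a subunit of the peptide exchanger of class II molecules, had levels of 1.93 and 1.64 on hCD4+ arrays, against 0.13 and 0.05 on hCD4- arrays, a change of 1.69 (standard error 0.19, adjusted p = 9.98e-04). Of 24 lysosome and cathepsin genes 8 rose and 0 fell (2 lower at an unadjusted p under 0.05, median change 0.29). Ctsh, cathepsin H, lay at 3.26 and 3.28 on hCD4+ arrays, against 0.48 and -0.47 on hCD4- arrays. It rose by 3.26 (standard error 0.34, adjusted p = 6.96e-04), and Cd63, a tetraspanin of lysosomes and granules, rose by 1.77 (standard error 0.18, adjusted p = 6.11e-04). Of the Toll-like receptor list 5 of 14 rose and 1 fell (median change 0.27), with Tlr7, the endosomal receptor for single-stranded RNA, up by 1.32 (standard error 0.17, adjusted p = 0.0016) and Ly86, partner of the B cell Toll-like protein RP105, by 1.00 (standard error 0.10, adjusted p = 5.51e-04). Among integrins and adhesion genes 7 of 19 rose and 3 fell (median change 0.31), and Itgb7, the integrin beta 7 chain, had levels of 2.58 and 2.33 on hCD4+ arrays, against -0.97 and -1.87 on hCD4- arrays and a rise of 3.88 (standard error 0.37, adjusted p = 4.92e-04). Of the chemokine receptor list 7 of 18 rose and 2 fell (median change -0.11).

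Genes of basophils, mast cells and eosinophils rose in 7 of the 19 kept cases and fell in none (median change 1.41). Hdc, which makes histamine, had levels of -0.74 and -0.72 on hCD4+ arrays, against -2.88 and -3.06 on hCD4- arrays, a change of 2.24 (standard error 0.46, adjusted p = 0.0132). That call ended without any 1 of the 4 pro-B arrays (adjusted p 6.02e-05 to 0.0788 over its alternatives). The summed signal of the list was 10.6 and 10.5 on hCD4+ arrays, against 3.83 and 3.99 on hCD4- arrays, and in GMP all 19 genes were well above background on both arrays.

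Genes of stem and progenitor cells were mixed. Of the list 8 of 22 rose and 1 fell (median change 0.56). Cd34 had levels of 2.83 and 2.73 on hCD4+ arrays, against -1.41 and -5.12 on hCD4- arrays, a change of 6.05 (standard error 0.97, adjusted p = 0.00462), where hCD4- replicate 1 was above background and replicate 2 was not, while its other probe changed by 0.46. Hlf, a factor of stem cells, was at -3.09 and -3.12 on hCD4+ arrays, against -5.30 and -6.33 on hCD4- arrays. It rose at least 3.15-fold (adjusted p = 0.0157), a call that ended without hCD4+ replicate 1, without hCD4+ replicate 2 and without hCD4- replicate 2 (adjusted p 0.00424 to 0.104 over its alternatives). Of the early lymphoid list 7 of 18 rose and 3 fell (median change 0.02), with Flt3 and Ccr9 leading. Ccr9, a chemokine receptor of early thymic and plasmacytoid cells, lay at 1.02 and 0.86 on hCD4+ arrays, against -1.19 and -2.29 on hCD4- arrays. It rose by 2.69 (standard error 0.51, adjusted p = 0.00953), with 3.35 at its other probe. Its call ended without hCD4+ replicate 1 and without hCD4- replicate 2 (adjusted p 0.00135 to 0.0673 over its alternatives).

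The 9 core genes of the B lineage programme given here were well above background in both groups, with somewhat lower levels in hCD4+ pro-B cells. Other B lineage genes, some of which fell, are given further below. Ebf1 lay at 3.63 and 3.54 on hCD4+ arrays, against 4.18 and 4.11 on hCD4- arrays, a change of -0.56 (adjusted p = 0.398), and Pax5 at -1.14 and -1.26 on hCD4+ arrays, against -0.66 and -0.55 on hCD4- arrays, a change of -0.59 (adjusted p = 0.209). Further changes without a call were Cd79a at -0.47 (adjusted p = 0.287), with -0.29 at its other probe, Vpreb1 at -0.42 (adjusted p = 0.218) and Igll1, the other surrogate light chain gene, at -0.51 (adjusted p = 0.259). The recombinase genes stood at -0.87 (adjusted p = 0.116) for Rag1, with -0.51 at its other probe, and -0.68 (adjusted p = 0.159) for Rag2, Dntt at -0.38 (adjusted p = 0.0996) and Il7r, the interleukin 7 receptor, at -0.34 (adjusted p = 0.129). In all 9 of these genes both hCD4+ levels were under both hCD4- levels, as in 32.4% of all genes tested. These differences were small and their calls depended on the setting. With normexp background correction and quantile normalization 7 of the 9 were called lower, and 7 in the authors' deposited table. With dim levels set to the detection floor 4 were called, and 4 with only the 4 arrays compared. Changes ran over -0.87 to -0.18 in those settings. With array-median scaling 3 of the 9 were called lower, at changes of -1.09 to -0.56. The standard errors above come from all 6 groups, and 5 of these genes were well above background on no GMP array.

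**Figure D3:**
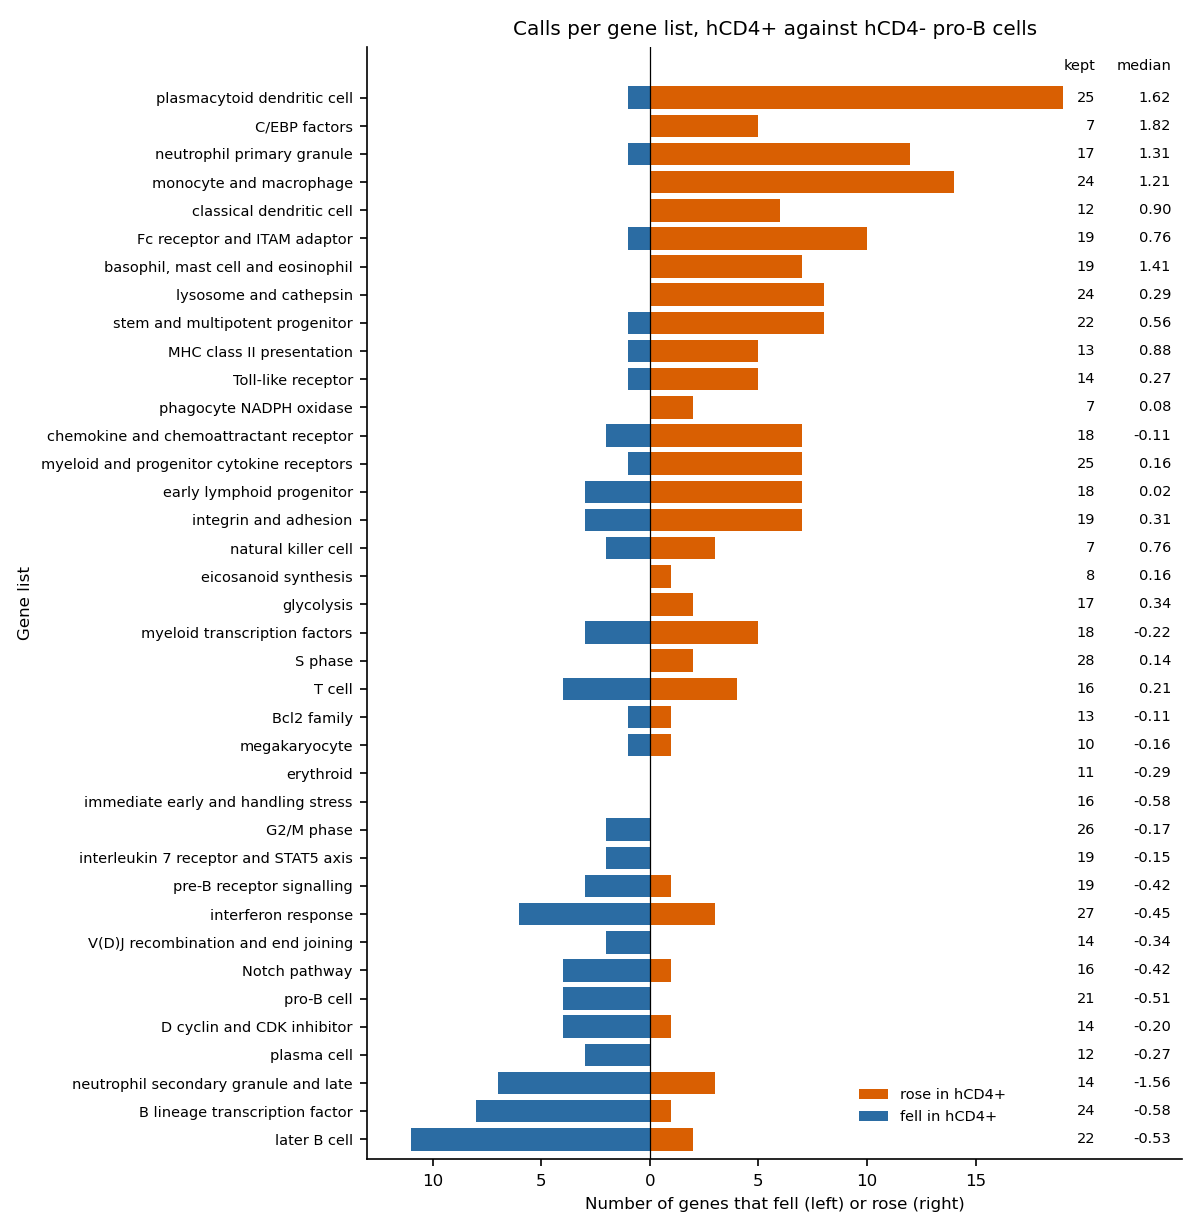
For each of 38 gene lists, the number of kept genes that rose (orange, right) and fell (blue, left) in hCD4+ against hCD4- pro-B cells, with the number kept and the median change printed beside the bars. Plasmacytoid, monocyte and primary granule lists extend to the right, and later B cell and late neutrophil lists to the left.

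Calls among B lineage genes were mostly falls. Over all genes 8.71% fell and the median change was 0.03. Of 21 pro-B cell genes 0 rose and 4 fell (median change -0.51), Cd79b among them, the other signalling chain of the antigen receptor, with levels of 6.47 and 6.35 on hCD4+ arrays, against 7.04 and 6.99 on hCD4- arrays and a change of -0.60 (standard error 0.12, adjusted p = 0.0126). Its call ended without hCD4+ replicate 2, without hCD4- replicate 1 and without hCD4- replicate 2 (adjusted p 0.00146 to 0.0711 over its alternatives). Enpep, the aminopeptidase known as BP-1, a surface marker of late pro-B and pre-B cells, was at -5.62 and -5.03 on hCD4+ arrays, against -2.75 and -2.70 on hCD4- arrays, at least 3.78-fold lower (adjusted p = 3.71e-04). Of the B lineage transcription factors 1 of 24 rose and 8 fell (median change -0.58). Irf4, which acts with Irf8 at the pre-B stage, lay at 1.60 and 1.45 on hCD4+ arrays, against 2.90 and 2.61 on hCD4- arrays, a change of -1.23 (standard error 0.16, adjusted p = 0.00201), and Bcl6, a repressor induced by the pre-B receptor, changed by -1.17 (standard error 0.19, adjusted p = 0.00519). Of the pre-B receptor signalling list 1 of 19 rose and 3 fell (median change -0.42), with Cd72, an inhibitory co-receptor, at 2.95 and 2.85 on hCD4+ arrays, against 4.34 and 4.42 on hCD4- arrays, a change of -1.47 (standard error 0.12, adjusted p = 2.90e-04), and -1.57 at its other probe. The shares that fell in the recombination list and in the interleukin 7 and STAT5 list, 14.3% and 10.5%, lay nearer that of all genes. In the recombination list 0 of 14 rose and 2 fell (0 higher at an unadjusted p under 0.05, median change -0.34): Lig4, the ligase that closes the joints, changed by -1.56 (standard error 0.25, adjusted p = 0.00436) and Xrcc6, the Ku70 gene, by -0.94 (standard error 0.12, adjusted p = 0.0016). In the interleukin 7 and STAT5 list 0 of 19 rose and 2 fell (2 higher at an unadjusted p under 0.05, median change -0.15), the falls being in Socs1 and Socs2, feedback inhibitors of the pathway. Those of Socs1 (-0.87, standard error 0.18, adjusted p = 0.0136) and Socs2 (-0.95, standard error 0.19, adjusted p = 0.0115) both ended without hCD4+ replicate 1, with adjusted p of 0.00529 to 0.084 and 6.80e-04 to 0.0765 over their alternatives.

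Genes of later B cells fell in 11 of 22 cases and rose in 2 (median change -0.53). Cxcr5, the receptor that leads B cells to follicles, had levels of -4.21 and -4.66 on hCD4+ arrays, against -2.03 and -1.20 on hCD4- arrays, a change of -2.82 (standard error 0.29, adjusted p = 7.18e-04). Ltb, lymphotoxin beta, lay at 1.45 and 1.14 on hCD4+ arrays, against 3.02 and 3.09 on hCD4- arrays, a change of -1.76 (standard error 0.19, adjusted p = 9.08e-04), and Cd55, a complement inhibitor, at -2.34 and -2.27 on hCD4+ arrays, against -0.52 and -0.71 on hCD4- arrays, a change of -1.69 (standard error 0.22, adjusted p = 0.00176). Each of these is brighter in pre-B cells than in hCD4+ pro-B cells, with pre-B levels of -2.09 and -1.84 for Cxcr5, 2.73 and 2.52 for Ltb and 1.40 and 1.12 for Cd55. Among all 119 genes that fell by over 2, pre-B was the brightest of the other 4 groups for 95 (79.8%), as it was for 62.4% of all 1616 falls and for 33.8% of all genes tested. Of the 420 genes that rose by over 2, GMP was the brightest of those groups for 31.7%, hCD4- pre-pro-B for 30.7%, pre-B for 22.1% and hCD4+ pre-pro-B for 15.5%, next to 35.0%, 23.4%, 33.8% and 7.69% of all genes tested.

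Antibody transcripts were the largest falls among named genes. Igh-VJ558, a probe name for immunoglobulin heavy chain sequence, had levels of 0.74 and -5.18 on hCD4+ arrays, against 6.27 and 6.17 on hCD4- arrays, a change of -8.44 (standard error 1.59, adjusted p = 0.00892), and its other probes gave -4.67, -0.71 and -8.46. Igj, the joining chain of secreted antibody, now Jchain, lay at -3.58 and -6.66 on hCD4+ arrays, against 2.43 and 2.02 on hCD4- arrays, a change of -7.35 (standard error 0.82, adjusted p = 9.38e-04). In both genes hCD4+ replicate 1 was above background and replicate 2 was not. Without hCD4+ replicate 2 the Igh-VJ558 change was -5.48 and its call was kept, while it ended without hCD4- replicate 2 and with only the 4 arrays compared (adjusted p 3.56e-04 to 0.053 over its alternatives). The levels in hCD4- pre-pro-B cells, on another slide, were 5.36 and 6.74 for Igh-VJ558 and 1.56 and 2.47 for Igj. In hCD4+ pre-pro-B cells, on the slide of the hCD4- pro-B arrays, the mean levels were lower, at -3.85 and -3.45. Pre-B levels were -4.88 and -2.96 for Igh-VJ558 and -6.73 and -6.38 for Igj. Of 6 kept genes with an immunoglobulin name 4 fell. The other falls were Igkv5-39, at least 2.59-fold lower (adjusted p = 7.36e-05), and Igk-C (adjusted p = 0.00913), which no pro-B array measured well above background and whose call ended in 5 of its 24 alternatives (adjusted p 0.00222 to 0.712 over its alternatives), with its sign turned in 1 of them. Ighg, at -2.62 and -2.80 on hCD4+ arrays, against -3.24 and -4.42 on hCD4- arrays, and Igkv4-53, at -3.70 and -3.90 on hCD4+ arrays, against -4.80 and -4.72 on hCD4- arrays, had no call (adjusted p = 0.133 and 0.111), and in both the hCD4+ levels were the higher. Igkv4-53 was called higher in 5 alternatives (adjusted p 0.00971 to 0.591 over its alternatives). These 4 were named after their values were seen. Igh-VJ558, Igj and 7 of the 14 late neutrophil genes were thus higher in hCD4- pro-B cells, and the part that cells of those types may have in other falls was not tested. Among 12 kept genes of the plasma cell list 0 of 12 rose and 3 fell (3 higher at an unadjusted p under 0.05, median change -0.27). Prdm1, the factor of plasma cell fate, stood at 1.07 (adjusted p = 0.0595), and Xbp1, of the secretory response, at -0.34 (adjusted p = 0.119), named after its value was seen.

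Other genes led the falls without a list of their own. Grb7, an adaptor of receptor tyrosine kinases, had levels of -2.78 and -3.22 on hCD4+ arrays, against 0.83 and 1.23 on hCD4- arrays, a change of -4.03 (standard error 0.22, adjusted p = 6.21e-05). Klhl32, a kelch family gene, lay at -2.66 and -2.79 on hCD4+ arrays, against 0.02 and 0.35 on hCD4- arrays and changed by -2.90 (standard error 0.25, adjusted p = 3.40e-04), and Gchfr, a regulator of tetrahydrobiopterin synthesis, lay at -3.77 and -4.02 on hCD4+ arrays, against -1.44 and -0.98 on hCD4- arrays and changed by -2.68 (standard error 0.16, adjusted p = 7.36e-05). Il28ra, the interferon lambda receptor, now Ifnlr1, changed by -2.67 (standard error 0.23, adjusted p = 3.26e-04). Cacna2d1, a calcium channel subunit, changed by -2.67 (standard error 0.19, adjusted p = 1.36e-04), with -2.64 at its other probe. Pcp4l1 changed by -2.55 (standard error 0.27, adjusted p = 7.97e-04) and Slit1, a guidance ligand, by -2.54 (standard error 0.20, adjusted p = 2.11e-04). Among genes that no hCD4+ array measured, Heyl, a target of Notch signalling, was at -5.28 and -4.84 on hCD4+ arrays, against -1.44 and -0.80 on hCD4- arrays, at least 11.5-fold lower (adjusted p = 1.21e-04), Speer2 at least 5.85-fold (adjusted p = 1.03e-04), Klra7 at least 5.09-fold (adjusted p = 0.00867), F11r at least 4.71-fold (adjusted p = 0.0276) and Klra4 at least 4.57-fold (adjusted p = 0.00474). Klra4 and Klra7 belong to the Ly49 family of near-identical natural killer receptors, and their probes may share sequence. The call of F11r ended without any 1 of the 4 pro-B arrays and without the filter (adjusted p 4.54e-04 to 0.146 over its alternatives), and that of Klra7 without hCD4+ replicate 1 and without hCD4- replicate 2 (adjusted p 8.89e-05 to 0.0598 over its alternatives). In the Notch list 1 of 16 rose and 4 fell (median change -0.42), with Notch2 itself at 1.05 (standard error 0.14, adjusted p = 0.00198) but -0.32 at its other probe, and with the mean of the probes its call ended (adjusted p 5.72e-04 to 0.194 over its alternatives).

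Markers of other blood cells moved in both directions or little. Of 16 T cell genes 4 rose and 4 fell (median change 0.21): Cd3d, a chain of the T cell receptor complex, was at -6.93 and -6.28 on hCD4+ arrays, against -3.0 and -3.94 on hCD4- arrays, at least 2.26-fold lower (adjusted p = 0.00135), while Cd8a, which dendritic and plasmacytoid cells can also carry, was at least 1.96-fold higher (adjusted p = 3.98e-04), with a change of 1.00 at its other probe. Their summed signal was 24.6 and 22 on hCD4+ arrays, against 26.3 and 27.9 on hCD4- arrays. Of 7 kept natural killer genes 3 rose and 2 fell (median change 0.76), with 7 of 17 listed genes kept. Klrd1, the CD94 chain, rose by 2.14 (standard error 0.32, adjusted p = 0.00332). Of 11 erythroid genes 0 rose and 0 fell (0 higher and 0 lower at an unadjusted p under 0.05, median change -0.29), and their summed signal was 7.21 and 7.57 on hCD4+ arrays, against 7.91 and 8.23 on hCD4- arrays. In the megakaryocyte list 1 of 10 rose and 1 fell (median change -0.16), and Pf4, platelet factor 4, stood at -2.27 (adjusted p = 0.102).

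Calls were no more frequent among S phase and G2/M genes than among all genes tested, of which 11.6% rose and 8.71% fell. Of 28 S phase genes 2 rose (7.14%) and 0 fell (2 lower at an unadjusted p under 0.05, median change 0.14). Of 26 G2/M genes 0 rose and 2 fell (7.69%), with 2 higher at an unadjusted p under 0.05 and a median change of -0.17. Cenpe, a motor protein of the centromere, had levels of 3.74 and 3.93 on hCD4+ arrays, against 4.54 and 4.56 on hCD4- arrays, a change of -0.71 (standard error 0.12, adjusted p = 0.00579). Ccne2, cyclin E2, was at -3.28 and -3.20 on hCD4+ arrays, against -7.04 and -6.46 on hCD4- arrays, at least 2.87-fold higher (adjusted p = 8.00e-05), but it lay at -3.27 and -3.52 in pre-B cells on the same slide, so that all 4 arrays of that slide were above the other 8. Regulators of the entry into the cycle moved more: Ccnd1, cyclin D1, lay at 1.20 and 0.82 on hCD4+ arrays, against -1.30 and -2.64 on hCD4- arrays. It rose by 2.97 (standard error 0.51, adjusted p = 0.00604). The inhibitors Cdkn1b and Cdkn2d changed by -0.93 (standard error 0.13, adjusted p = 0.00291) and -0.85 (standard error 0.12, adjusted p = 0.00239), with -0.39 at the other Cdkn1b probe, and Cdkn2a was at least 2.39-fold lower (adjusted p = 9.24e-04). Of that list 1 of 14 rose (7.14%) and 4 fell (28.6%), with a median change of -0.20.

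The share that rose was 7.69% among Bcl2 family genes and 11.8% among glycolysis genes, next to 11.6% of all genes. Interferon response genes fell more often than the 8.71% of all genes. Of 13 Bcl2 family genes 1 rose and 1 fell (median change -0.11), with Bmf, a death-promoting member, at -0.87 and -1.10 on hCD4+ arrays, against 0.86 and 1.34 on hCD4- arrays, a change of -2.08 (standard error 0.35, adjusted p = 0.00561), and Bcl2, which protects from death, at 0.72 (adjusted p = 0.0919). Of 27 interferon response genes 3 rose and 6 fell (median change -0.45), that is 11.1% and 22.2%, with falls in Ifit3 (-1.77, standard error 0.25, adjusted p = 0.00261) and Ifi27l2a (-1.23, standard error 0.16, adjusted p = 0.0018). Of 16 immediate early and handling stress genes 0 rose and 0 fell (0 higher and 4 lower at an unadjusted p under 0.05, median change -0.58). Of 17 glycolysis genes 2 rose and 0 fell (median change 0.34). At an unadjusted p under 0.05, 9 of the 17 were higher and 0 lower, next to 3540 and 2928 of all 18556 genes. The rises were led by Eno1, an enolase, at 0.67 (standard error 0.14, adjusted p = 0.0153). Its call ended without hCD4+ replicate 1 and without hCD4- replicate 2. Of 8 eicosanoid genes Tbxas1, thromboxane synthase, was the only call, at least 3.34-fold higher (adjusted p = 5.44e-04).

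**Figure D4:**
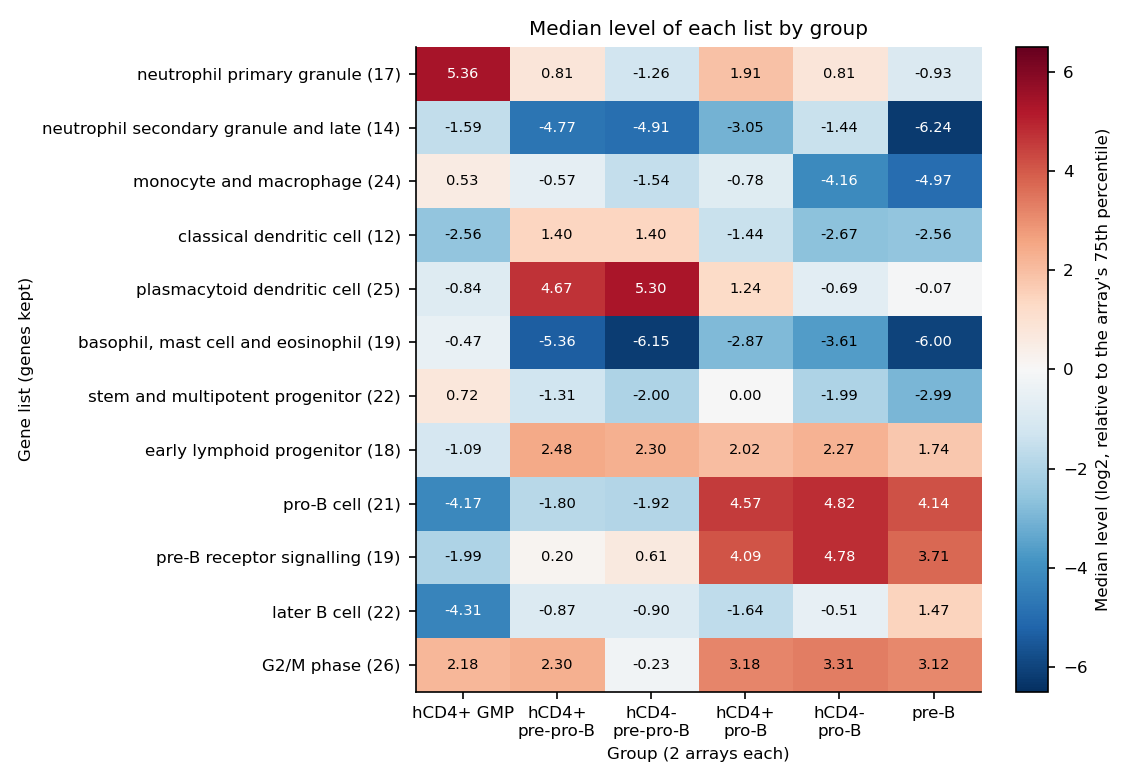
Median log2 level of the kept genes of 12 lists in each of the 6 groups (mean of 2 arrays per gene), with hCD4+ to the left of hCD4- for pro-B and for pre-pro-B cells. Primary granule genes are brightest in GMP and plasmacytoid genes in pre-pro-B cells, and in both lists hCD4+ pro-B cells lie above hCD4- pro-B cells.

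The same sort into hCD4+ and hCD4- cells was made at the pre-pro-B stage, and the difference between the stages was tested directly. The hCD4+ minus hCD4- difference was larger in pro-B than in pre-pro-B cells for 2328 genes (12.5%) and smaller for 1931 (10.4%). For Cebpa it was larger by 3.91 (standard error 0.69, adjusted p = 0.00716), the pre-pro-B change being 0.50. For Ccr2 it was larger by 4.77 (standard error 0.32, adjusted p = 1.63e-04), with a pre-pro-B change of 0.30, and for Itgax by 4.44 (standard error 0.97, adjusted p = 0.0156), with 0.17. It was larger for 6 of 12 classical dendritic genes and 10 of 19 Fc receptor and adaptor genes and smaller for none of either list, for Fcer1g by 3.60 (standard error 0.29, adjusted p = 2.27e-04). For Irf8, which is in neither list, it was larger by 1.89 (standard error 0.17, adjusted p = 4.11e-04). Among granule genes Prtn3 was larger by 3.53 (standard error 0.77, adjusted p = 0.0161) and Elane by 2.97 (standard error 0.37, adjusted p = 0.0016), while Mpo (3.31, standard error 1.78, adjusted p = 0.208) and Ctsg (1.88, standard error 1.18, adjusted p = 0.274) were not called, and their pre-pro-B changes were 5.25 and 4.97. The hCD4- pre-pro-B arrays had a median standard deviation between replicates of 0.221, against 0.0977 to 0.150 in the other groups, and their 75th percentiles were the lowest of the 12 arrays. At that stage too each group lies on a slide without the other.

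Among genes measured above background in both pro-B groups whose arrays did not overlap, the largest positive differences between the stages were in Rims1, a synaptic scaffold gene (4.85, standard error 1.04, adjusted p = 0.0151), Elk4, an Ets factor gene (4.84, standard error 1.00, adjusted p = 0.013), Pltp, phospholipid transfer protein (4.75, standard error 0.72, adjusted p = 0.00391), and Cd209a (4.48, standard error 1.16, adjusted p = 0.029). Elk4 changed by 1.98 (adjusted p = 0.0857) in pro-B cells, with -0.68 and -0.59 at its other probes and a call only without hCD4+ replicate 1, and Rims1 changed by 2.65 (standard error 0.74, adjusted p = 0.0387), with hCD4+ replicate 2 well above replicate 1. The call of Rims1 ended without hCD4+ replicate 2, without either hCD4- array, without either GMP or hCD4+ pre-pro-B array, without the filter and with only the 4 arrays compared (adjusted p 0.0214 to 0.213 over its alternatives), and its change without hCD4+ replicate 2 was 1.66. By the same terms the largest negative differences were in Pf4 (-5.64, standard error 1.22, adjusted p = 0.0153), F13a1, the coagulation factor XIII A chain of monocytes and megakaryocytes (-4.65, standard error 0.18, adjusted p = 9.40e-05), Cdc25b, a phosphatase that starts mitosis (-4.11, standard error 0.26, adjusted p = 1.53e-04), and Als2cl (-3.91, standard error 0.30, adjusted p = 2.00e-04). F13a1 rose in pro-B cells too, by 0.80 (standard error 0.13, adjusted p = 0.00509), Cdc25b changed by -1.42 (standard error 0.18, adjusted p = 0.0018), and Als2cl by -2.07 (standard error 0.21, adjusted p = 6.52e-04). Cell cycle genes lay on this side: the difference was smaller in pro-B cells for 24 of 28 S phase and 25 of 26 G2/M genes, whose median pre-pro-B changes were 1.80 and 2.42. Cenpe is an example (-2.97, standard error 0.17, adjusted p = 1.48e-04), with a pre-pro-B change of 2.25. Of the 25 plasmacytoid dendritic genes, 19 had a larger difference in pro-B cells and 0 a smaller, with a median pre-pro-B change of -0.42.

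**Figure D5:**
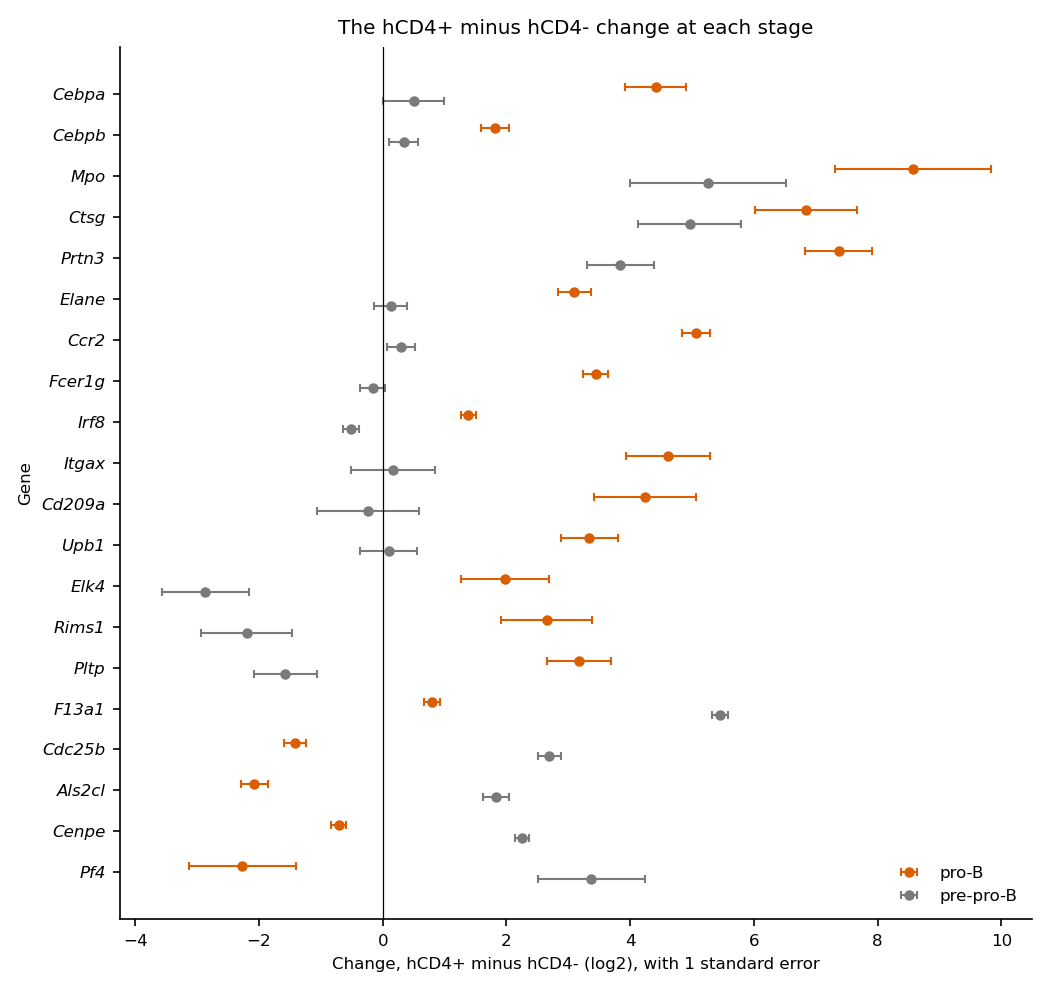
hCD4+ minus hCD4- change on the log2 scale in pro-B cells (orange, upper of each pair) and in pre-pro-B cells (grey, lower), with bars of 1 standard error from the shared model, for 20 genes. Cebpa, Ccr2 and the dendritic genes lie well to the right in pro-B cells and near 0 in pre-pro-B cells, Mpo and Ctsg lie to the right at both stages, and Cenpe and Cdc25b have opposite signs at the stages.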

How the data were processed

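Labelled RNA of sorted mouse bone marrow cells was hybridised to 12 one-colour Agilent arrays in 6 groups of 2. Per the file headers, the authors' deposited scanner files come from Feature Extraction 10.7.3.1 and hold a background-subtracted, detrended intensity per spot on the linear scale, with probe positions on mm9. The authors' deposited table holds log2 values per gene name, per its first line. Each of its columns has a median of 6.5, and its normalization is not given in the sources used here.

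Outlier spots were set to missing, spots of a probe averaged, and each array's 75th percentile subtracted from its log2 intensity. Probes that the software marked well above background on both arrays of some group were kept, and each gene was represented by its brightest kept probe. Among 3907 genes with several kept probes, the changes of 348 differed between probes by over 1. This left 18556 genes. Limma 3.58.1 in R 4.3.3 (lmFit and eBayes, two-sided) fitted all 12 arrays in 6 groups, with 6 residual and 2.14 prior degrees of freedom, so all comparisons share an estimate of the spread. Benjamini-Hochberg adjustment ran over all genes. The hCD4+ minus hCD4- difference was also compared between stages in that fit. The fit was also run on simulated data with known changes. Those data held no slide effect, so the run cannot tell slide from hCD4 status. "At least N-fold" sets a group that no array measured to its detection floor, or to its own level where that is higher. The floor is the lowest level among probes marked well above background there. The bound holds within the 75th percentile scaling only, and fitted changes under some alternatives were smaller.

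Levels are relative to each array's own signal and carry no RNA amount per cell. The array annotation gives the gene names (Igj is now Jchain, Sfpi1 is Spi1, Il28ra is Ifnlr1). Of the kept genes 13842 matched the RefSeq table of GRCm38.p6, which served for names and promoters only, and 6305 named by a clone or accession are not named here. The genes named are the 12 largest rises and falls measured in both groups without overlap, the 6 largest bounds in each direction, a fixed set of lineage genes, up to 5 of each of 38 lists and, among genes measured in both pro-B groups without overlap, the 4 largest stage differences in each direction. Of the genes this rule names, 2 are not reported here. Other genes are marked as named after their values were seen. The comparison, the gene lists and this rule were chosen with earlier results of these data known. Alternatives were other normalizations, filters, probe choices, the authors' deposited table, other variance models, a replicate block and each array left out in turn.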

Additional observations from a re-analysis of the deposited data

Results flagged for a closer look

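For 86 of the 124 genes named above, the hCD4+ minus hCD4- difference itself differed between pro-B and pre-pro-B cells in the limma test of that difference (adjusted p under 0.05 over all genes). Over all genes 12.5% had a larger and 10.4% a smaller difference. Many of the 124 were named for a large pro-B change or a large stage difference, which raises their count. Values below are the pro-B difference minus the pre-pro-B difference on the log2 scale. It was positive for 49 genes. Among neutrophil and C/EBP genes the difference was larger by 4.88 for Ms4a3, 3.91 for Cebpa, 3.53 for Prtn3, 2.97 for Elane, 2.5 for Cxcr2 and 1.48 for Cebpb. For monocyte and macrophage genes it was larger by 4.77 for Ccr2, 4.16 for Ms4a6c, 2.93 for Trem2, 2.59 for Lgals3, 2.59 for Aif1 and 2.21 for Cx3cr1. Among classical dendritic genes the difference was larger by 4.48 for Cd209a, 4.44 for Itgax and 4.2 for Clec9a. For plasmacytoid dendritic genes it was larger by 4.33 for Runx2, 4.10 for Lag3, 3.33 for Cox6a2, 3.23 for Upb1 and 3.05 for Ccr9. Among adaptor, oxidase and innate genes the difference was larger by 4.24 for Cybb, 3.84 for Pira7, 3.65 for Tyrobp, 3.60 for Fcer1g, 3.21 for Ncf1, 2.24 for Hk3 and 2.21 for Mefv. For class II, lysosome and Toll-like receptor genes it was larger by 3.65 for Ctsh, 1.84 for H2-DMb1, 1.74 for Tlr7, 1.32 for Ly86 and 0.90 for Cd63. Among growth factor receptors and regulators of fate the difference was larger by 2.85 for Il6ra, 2.61 for Flt3, 2.45 for Csf2rb2, 1.90 for Irf8, 1.63 for Prdm1, 0.96 for Notch2 and 2.78 for Hlf. For other genes that report on adhesion, metabolism or other blood cells it was larger by 3.90 for Itgb7, 3.60 for Cd8a, 2.35 for Klrd1, 1.54 for Tbxas1 and 0.95 for Eno1. Among cyclins the difference was larger by 4.03 for Ccne2 and 2.81 for Ccnd1. For further genes it was larger by 4.85 for Rims1, 4.84 for Elk4 and 4.75 for Pltp. These had opposite signs at the stages, as did some genes given above, Cybb and Runx2 among them.

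It was negative for the other 37 genes, where the hCD4+ level was lower relative to the hCD4- level in pro-B cells than in pre-pro-B cells. Among B lineage and recombination genes the value was -2.52 for Igll1, -1.90 for Lig4, -1.49 for Rag2, -1.44 for Cd72, -1.26 for Bcl6, -1.11 for Xrcc6, -0.89 for Irf4 and -2.22 for Enpep. For later B cell and antibody genes it was -2.79 for Igkv5-39, -2.33 for Cxcr5, -1.48 for Cd55 and -1.35 for Ltb. Among cell cycle genes and inhibitors the value was -4.11 for Cdc25b, -2.97 for Cenpe, -1.20 for Cdkn2d, -1.16 for Cdkn2a and -0.75 for Cdkn1b. For signalling, survival and interferon genes it was -1.68 for Socs2, -1.62 for Bmf, -1.24 for Ifi27l2a, -2.16 for Il28ra and -3.39 for Heyl. Among markers of other blood cells the value was -5.64 for Pf4, -4.65 for F13a1, -3.13 for Klra7, -2.97 for Ngp, -2.74 for Klra4 and -2.69 for Cd3d. For further genes it was -3.91 for Als2cl, -3.59 for F11r, -3.54 for Grb7, -3.21 for Klhl32, -2.91 for Speer2, -2.41 for Slit1, -2.26 for Pcp4l1, -2.23 for Cacna2d1 and -1.61 for Gchfr.

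With array-median scaling 43 of the 49 positive and all 37 negative differences kept their call. Without hCD4- pro-B replicate 2 these counts were 35 and 29, and 43 and 34 in the authors' deposited table, where the sign turned for 2. No outlier test was possible within groups of 2 arrays.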

How the results depend on the processing

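The counts of genes depend on each pro-B array. Leaving out 1 of the 12 arrays gave 957 to 2747 higher and 516 to 1985 lower genes, against 2145 and 1616, and the lone array left in a group was then assumed to vary like the other groups. Each of the 4 pro-B arrays lowered both counts by over 1.5 times when left out. For the stage comparison leaving out 1 array gave 1063 to 3546 larger and 973 to 2549 smaller differences, against 2328 and 1931. Array-median scaling gave 3151 lower genes, 1128 larger and 5378 smaller differences, and no filter on dim probes gave 955 lower genes and 1179 smaller differences among 31541 genes tested. Array weights gave 3077 and 2417 calls, and only the 4 arrays compared 2500 and 1406. The replicate numbers are shared between groups, but the deviations of same-numbered pro-B arrays correlated at only 0.0946, so the numbers were not taken as pairs. With the replicate number as a block 2378 genes were higher and 1760 lower, and all 100 called genes kept their call.

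Of the 100 called genes named, 81 kept their call under every alternative run and 19 lost it under at least 1, mostly without 1 pro-B array (9 to 16 genes lost). Of the called genes Igk-C alone turned its sign, at 0.11 with dim levels set to the detection floor. Signs turned for 4 genes without a call. Cd68 stood at -0.0457 with normexp and quantile normalization and -0.10 in the authors' deposited table, and ran over -0.95 to 1.89 without 1 array. Csf3r stood at -0.00365 with normexp and quantile normalization and -0.0699 with quantile normalization alone. It was -0.10 in the authors' deposited table and -0.16 with array-median scaling. Tcf4 stood at 0.00451 with quantile normalization and ran over -0.22 to 0.14 without 1 array, and Itgam over -1.13 to 0.34. The causes were not tested.

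The slide as a block, fixed or random, was not run, because each pro-B group lies on a slide without the other. Each group has 2 arrays, which limits the precision, and levels of genes not well above background rest on signal near that of the negative controls.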
